A study of Homo sapiens with 24 samples.

Results

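The m6A peaks of 7 genes that write, erase or maintain DNA methylation were described across human pancreatic differentiation. N6-methyladenosine (m6A) is a methyl mark on RNA. In m6A-seq, RNA fragments are immunoprecipitated with an antibody against m6A (IP) and sequenced beside the fragments before precipitation (input), and a peak is a stretch enriched in IP over input. The genes were TET1, TET2, TET3, DNMT1, DNMT3A, DNMT3B and UHRF1, and a peak belonged to them when its list named the gene's Ensembl identifier. This gave 225 of 228472 peaks in the 6 deposited lists. Of these, 210 had at least 1 nt on an exon of the gene, and the other 15 lay on exons of S1PR2, a neighbour of DNMT1, and were set aside. There were 24 libraries of MEL1 cells, a human embryonic stem cell line that the study's methods name MEL1 INSGFP/W and that carries GFP at the insulin gene in all populations, with 2 IP and 2 input libraries for each of 6 populations and 1 peak list per population. From batch 1 came undifferentiated pluripotent cells (hPSC, 36 peaks on the 7 genes), definitive endoderm (DE, 27), pancreatic progenitors (PP, 44) and islet-like organoids (hILO, 30). All but the hPSC were differentiated in culture with stepwise factors. From batch 2 came wild-type progenitors (WT PP, 30) and progenitors lacking the m6A demethylase ALKBH5 (A5-KO PP, 43). The knockout had been made in hPSC with CRISPR-Cpf1 and lines had been grown from picked colonies, and the labels name the population only as A5_KO, so how many clones it held is not known from them. Batch 1 used mRNA and a SYSY antibody, whereas batch 2 used total RNA, a Millipore antibody, input depleted of rRNA and another library kit, so batches and populations cannot be told apart between the batches. The lists gave no value per library. The spread between libraries is therefore unknown, and differences between populations were not tested.

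DNA methylation marks cytosines, mostly where a guanine follows. DNMT3A and DNMT3B are the de novo methyltransferases that set it, and DNMT1 copies it onto the new strand after replication, guided by UHRF1, which binds DNA methylated on one strand only. TET1, TET2 and TET3 are dioxygenases that oxidise 5-methylcytosine and so begin its removal. TET1 and DNMT3B are known for high expression in pluripotent cells, and the balance of both enzyme groups is remodelled as such cells differentiate. The m6A described here is on the transcripts of these enzymes and is distinct from the DNA methylation that the enzymes act on.

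Some stretches of 5 transcripts were inside a peak in all 6 lists, and short sequences from them show what was enriched throughout. All are 25 bases of GRCh38, written 5′ to 3′ on the transcript strand, with a match to DRACH in capitals. DRACH, the usual m6A motif, is A, G or T, then A or G, then A, then C, then A, C or T. TET1, TET2 and TET3 sites lay in coding sequence, the DNMT3A sites just past the stop codon and the UHRF1 site in the 3′UTR. Where a stretch held a match with GGAC, a form in which m6A is often found, that match is shown. No such match was in the common stretches of TET2 and TET3, so 1 other match of each is given. Some common stretches of TET1 also held none, among them the longest, of 400 nt across the stop codon. No match from these is shown. The last 4 lines show DNMT1 sites inside peaks of all 4 lists of batch 1, and the sites with GGAC in the only DNMT3B peak, which was in PP.
TET1, chr10:68644848-68644872: gtggagaagtGGACAcaaaacaaga
TET1, chr10:68646007-68646031: taaaaccagaGGACAaaaaagttga
TET1, chr10:68646883-68646907: tttccacagtGGACAgtgcacagaa
TET2, chr4:105235474-105235498: acctcaagcaTAACCcaccaatttt
TET3, chr2:74047291-74047315: tcccatggctGAACTggagcagttg
DNMT3A, chr2:25234263-25234287: tgtgtgtaagGGACAtgggggcaaa
DNMT3A, chr2:25234079-25234103: gaaaagggttGGACAtcatctcctg
UHRF1, chr19:4961471-4961495: ggcctcaaggGGACTctgctccacg
DNMT1, chr19:10162706-10162730: cgaagaaaaaGAACCtgaaaaagta
DNMT1, chr19:10154333-10154357: ttgaaaaggaTGACAgagaagacaa
DNMT3B, chr20:32787366-32787390: gcctagcccaGGACAgccagcaggg
DNMT3B, chr20:32788867-32788891: ttggaataggGGACCtcgtgtgggg

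Before the results, the deposited rows were checked. Within a list, longer peaks should hold more reads. In each list this held in a run of rows that began at row name 10000, where Spearman's rho between exonic length and IP reads was 0.47 to 0.63. In the remaining rows it was 0.03 to 0.10. The run held 30.3% of the hPSC peaks and 26.6% of the DE peaks, but 3.09% for PP, 5.71% for hILO, 3.46% for WT PP and 3.80% for A5-KO PP. Values that the choice of rows had not used differed likewise, since the input density of neighbouring peaks had a rho of 0.65 to 0.77 inside the run and 0.19 to 0.28 outside it. Counts and enrichments are therefore given only for rows in this run, called in register below, which held the peaks of TET1 in hPSC and DE and those of DNMT1 in the 4 lists of batch 1, 39 of the 210. The other results given here use only the positions of peaks. The reads inside all peaks of a list numbered 6987612 to 28463998 for input and 30723097 to 79822815 for IP. Peaks were on 5 of 5 pluripotency markers in hPSC, 5 of 5 endoderm markers in DE, 6 of 6 progenitor markers in PP, WT PP and A5-KO PP, and 6 of 6 islet markers in hILO. These markers were chosen with earlier results of these data known, so full counts in their own stage do not check the labels independently. Markers had peaks outside their own stage too. Pluripotency markers had them in DE (5 of 5), PP (2 of 5) and the other lists (1 of 5 each), and endoderm markers in hPSC (1 of 5), PP and hILO (3 of 5 each) and WT PP and A5-KO PP (4 of 5 each). Progenitor markers had them in hILO (6 of 6) and in hPSC and DE (2 of 6 each), and islet markers in PP and WT PP (2 of 6 each), A5-KO PP (3 of 6) and hPSC and DE (1 of 6 each). The ALKBH5 transcript itself carried 5 peaks in A5-KO PP beside 4 in WT PP, which does not check the knockout, since a transcript with a disrupted reading frame can still be methylated.

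The 3 TET transcripts carried most of the peaks, 158 of the 210, in every population. TET1 had 12 peaks in hPSC, DE had 9, PP 8 and hILO 7, and there were 8 in WT PP beside 12 in A5-KO PP. TET2 had its lowest number in hPSC, 4, then 5 in DE, 11 at the PP stage, 8 in hILO, and 9 and 12 in WT PP and A5-KO PP. TET3 had 11 in both hPSC and PP, 7 in DE, 6 in hILO, and 5 in WT PP beside 13 in A5-KO PP. No TET transcript had fewer than 4 peaks in a list. Of the methyltransferases, DNMT1 had 4 peaks each in hPSC and DE, 5 each in PP and hILO, and 2 in WT PP beside 3 in A5-KO PP. DNMT3A had 3 each in hPSC, PP and hILO, 1 in DE, and 5 in WT PP beside 2 in A5-KO PP. DNMT3B stood apart, with 1 peak in PP and none in the other 5 lists. UHRF1 had 2 in hPSC, 5 in PP and 1 in each of the other 4 lists. These numbers hold every listed peak, whatever the p in its row.

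Read against all 20046 protein-coding genes, it was the number of peaks per gene that was high. At least 1 peak was on 6 of the 7 genes in every list except PP, where all 7 had one, while the share of all genes was 58.1% for hPSC, 54.8% for DE, 49.9% for PP, 55.6% for hILO, 61.0% for WT PP and 68.0% for A5-KO PP. At least 5 peaks were on 2 of the 7 genes in hPSC, against 9.36% of all genes, and on 3 in DE, against 7.26%. They were on 5 of 7 in PP, against 6.88%, and on 4 of 7 in hILO, against 6.86%. In WT PP 4 of 7 had them, against 12.7%, and in A5-KO PP 3 of 7, against 14.6%. The 20046 genes include those without any peak. In hPSC, 11655 genes had at least 1 peak and 1876 at least 5, and peak number was not set against expression. The TET isoforms are long, from 9612 nt for TET1 to 12060 nt for TET3, and peak number was not set against transcript length. A share of the transcript takes length into account.

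By that share, TET1 and TET2 differed in how their coverage ran over the stages of batch 1. Of the longest coding isoform of TET1, peaks covered 35.9% in hPSC, with 20.0% in DE and 15.1% in PP, and 21.1% in hILO, so that hPSC was the highest of batch 1. For TET2 the share was lowest in hPSC, at 3.69%, then 9.59% in DE and 14.5% at the PP stage, and highest in hILO, at 26.3%. TET3 had 23.0% in hPSC and 17.2% in PP, against 8.08% in both DE and hILO. The median over all coding genes with a peak was 11.6%, 10.4%, 8.93% and 11.3% in the same order. TET2 thus lay below that median in hPSC and DE and above it in PP and hILO. In WT PP, the progenitors of batch 2, the share was 45.8% for TET1 and 43.3% for TET2, above every stage of batch 1. The part of transcript amount in coverage was not tested. DNMT1 had 12.1% in hPSC and 13.8% in hILO, against 6.90% in DE and 6.81% in PP. DNMT3A stayed between 3.68% and 6.85% in all 6 lists, below the median of each. UHRF1 had its highest share in PP, at 23.9%, and 7.57% to 10.7% in the other lists.

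**Figure D1:**
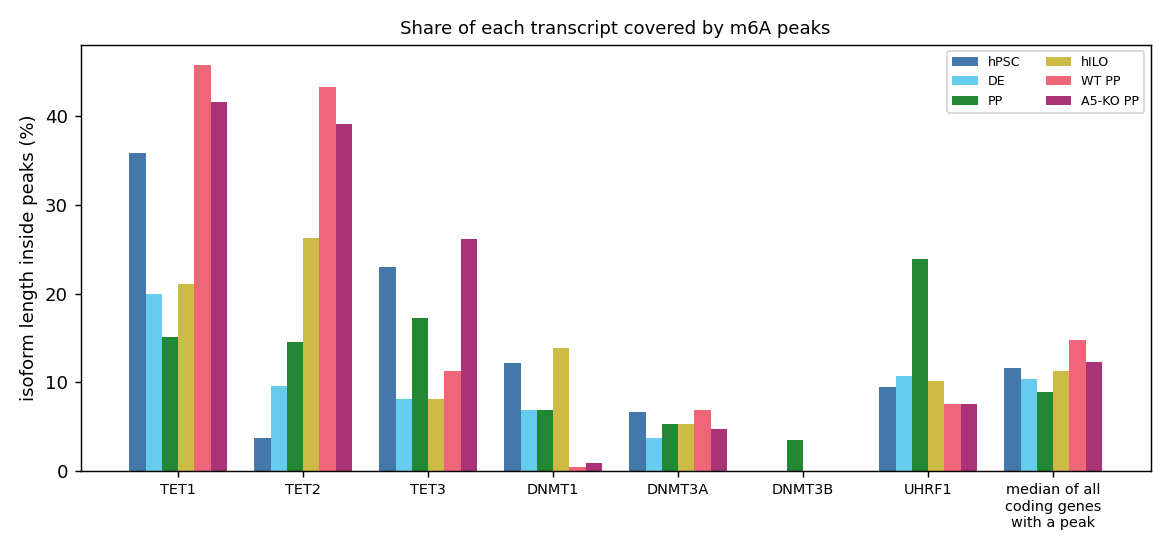
Bars give the percent of each gene's longest coding isoform that lay inside peaks, 1 bar per population, with the median over all coding genes that carry a peak at the right. TET1 and TET2 are highest in the batch 2 lists, TET2 goes from 3.69% in hPSC to 26.3% in hILO within batch 1, and DNMT3B has a bar in PP alone; each bar is 1 pooled list, so there are no error bars.

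Along the transcripts, peaks of the TET genes lay mainly in the coding sequence, to an extent that differed widely between the lists. By midpoint, 54 of 56 TET1 peaks, 46 of 49 TET2 peaks and 42 of 53 TET3 peaks lay in coding sequence. Peaks held 21.6% (PP) to 66.8% (WT PP) of the TET1 coding sequence, against 2.39% to 8.00% of its 3′UTR of 2676 nt. For TET2 the coding sequence ranged from 6.16% in hPSC to 66.3% in WT PP and the 3′UTR of 3300 nt from 0.0303% to 11.4%. For TET3 the coding sequence ranged from 14.9% in DE to 47.8% in A5-KO PP, with 15.8% in hILO and 19.0% in WT PP, and the 3′UTR of 6003 nt from 2.08% to 9.70%. The percent was higher in coding sequence than in the 3′UTR for each TET gene in every list. Over the 7 genes 172 of the 210 peaks lay in coding sequence, 31 in the 3′UTR, 1 in the 5′UTR and 6 off the longest coding isoform. Per list, coding sequence held 32 of 36 hPSC peaks, 22 of 27 DE peaks, 38 of 44 PP peaks, 25 of 30 hILO peaks, 23 of 30 WT PP peaks and 32 of 43 A5-KO PP peaks. Among peaks of all coding genes the share in coding sequence was 42.4% to 48.9%. The TET coding sequences are themselves long, and the length of the regions was not taken into account in these counts.

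DNMT3A and UHRF1 showed the other arrangement. For DNMT3A, 11 of 17 peaks were in the 3′UTR, and 6 of them, 1 in each list, were a single block at the stop codon. Its widest form, in WT PP and A5-KO PP, was chr2:25233955-25234354 on the minus strand, and 325 nt of it, chr2:25234005-25234329, were inside peaks of all 6 lists. Those 325 nt began at nt 3027 of the isoform, just before the coding sequence ends at nt 3074, and held 14 matches to DRACH, 2 of them GGAC. In UHRF1, 6 of 11 peaks were in the 3′UTR, again 1 in each list, and 300 nt, chr19:4961435-4961734 on the plus strand, were common to all lists. They began at nt 3250 of an isoform whose coding sequence ends at nt 2615, so this block, unlike that of DNMT3A, lay well past the stop codon. It held 5 matches to DRACH, 1 of them GGAC. The UHRF1 peaks in WT PP and A5-KO PP were identical in extent with this block.

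**Figure D2:**
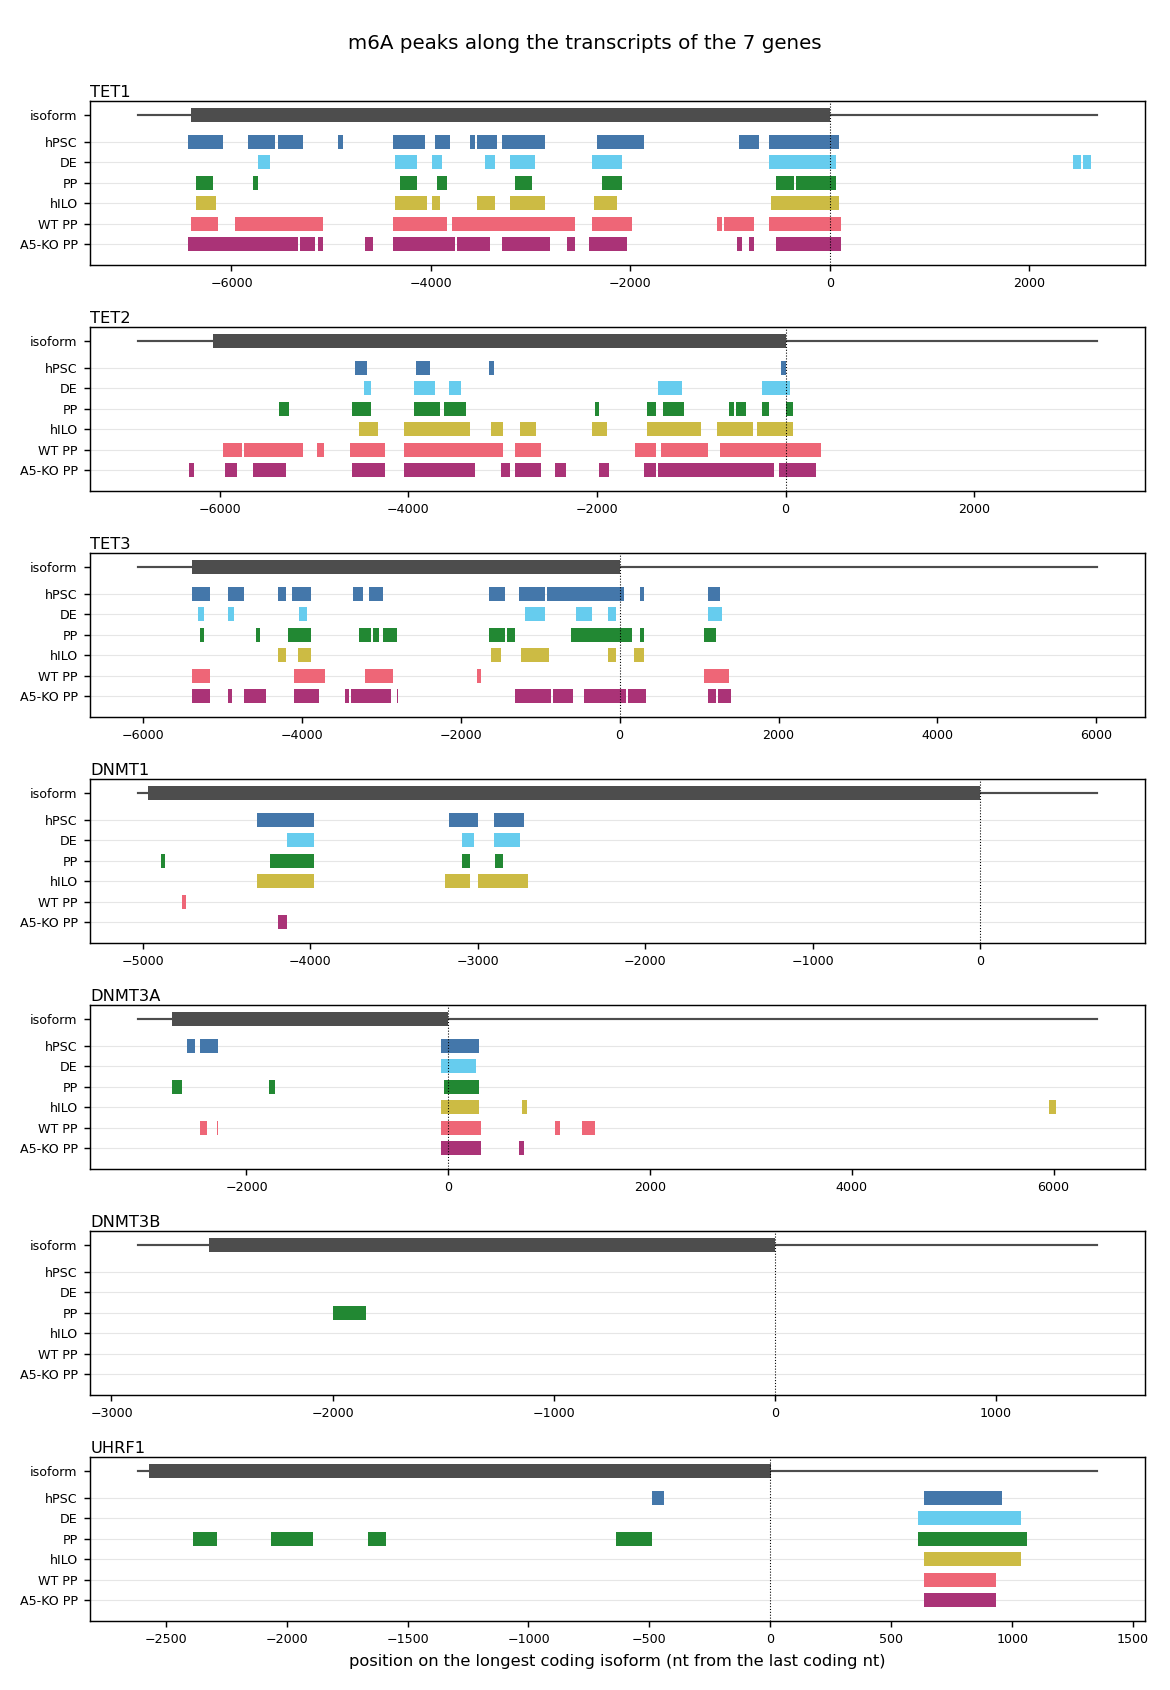
Each panel shows 1 gene, with its longest coding isoform on top (thick, coding sequence; thin, UTRs) and the peaks of each population below; the horizontal axis gives nt from the last coding nt, marked by the dotted line. TET peaks spread over the coding sequence, the DNMT3A block sits at the dotted line in all 6 lists, the UHRF1 block sits in the 3′UTR in all 6 lists, and the DNMT1 peaks lie in the 5′ part of the coding sequence.

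The stop codon was a shared place for some of the enzymes and not for others. The last coding nt was inside a peak of TET1 and DNMT3A in all 6 lists, of TET2 in 5 lists and of TET3 in 3. It was in no peak of DNMT1, DNMT3B or UHRF1 in any list. In TET2 the exception was PP, where a peak began at nt 6868 of the isoform, just after the last coding nt, 6866. That is 4 of the 7 genes in hPSC and A5-KO PP and 3 in the other lists, and among all coding genes with a peak the share was 31.9% to 44.8%. DNMT1 peaks clustered instead in the 5′ part of its coding sequence. In batch 1, apart from 1 PP peak nearer the start, they lay between nt 712 and nt 2330 of an isoform whose coding sequence runs to nt 5030. In batch 2 almost none of this was called, and peaks covered 0.436% (WT PP) and 0.873% (A5-KO PP) of the DNMT1 isoform.

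How far peaks recurred over the 6 lists also differed between the genes. Of the isoform nt inside a peak of at least 1 list, 28.8% in DNMT3A, 30.1% in UHRF1 and 21.5% in TET1 were inside peaks of all 6. For TET2 it was 3.50% and for TET3 2.35%. Over all coding genes it was 12.6%, and over the 7 genes together 11.4%. No nt of DNMT1 or DNMT3B was in all 6. In nt, TET1 had most, with 1100 nt in 6 segments, of which the longest ran over 400 nt across the stop codon (chr10:68691476-68691875). TET2 had 175 nt in 2 segments and TET3 100 nt in 1, chr2:74047275-74047374. The DNMT3B peak of PP ran over chr20:32787358-32788909 and had 150 nt on the exons, at nt 882 to 1031 of the isoform.

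**Figure D3:**
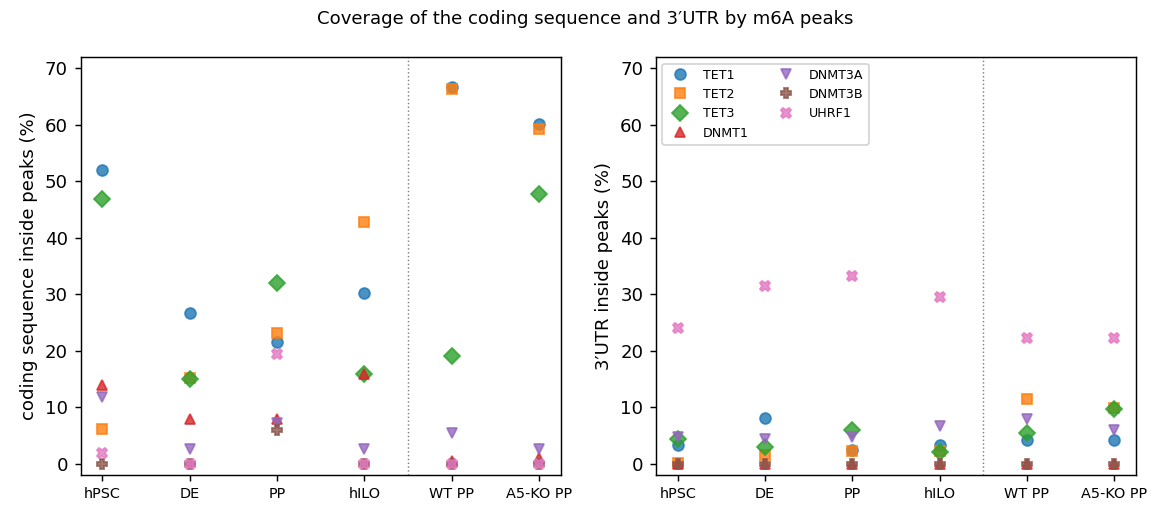
Points give the percent of the coding sequence (left) and of the 3′UTR (right) of each gene inside peaks, by population, with a dotted line between the batches. At the left the TET genes are highest in DE, PP, WT PP and A5-KO PP, whereas TET2 at 6.16% in hPSC is below DNMT1 (14.0%) and DNMT3A (11.8%), and TET3 and DNMT1 are both at 15.8% in hILO; TET3 is at 19.0% in WT PP but 47.8% in A5-KO PP. At the right UHRF1 is highest in every list, at 22.2% to 33.3%.

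Matches to DRACH were about as dense in the peaks of the 7 genes as in other peaks. They numbered 2.20 to 2.53 per 100 nt over the lists, beside 2.16 to 2.26 for all peaks, and GGAC numbered 0.326 to 0.529 beside 0.391 to 0.514. At least 1 match was in 187 of the 210 peaks, and among all peaks in 88.8% to 92.8%. By gene, the density of DRACH over all peaks was highest in DNMT3A, 3.05 per 100 nt, and lowest in TET3, 1.53. These values count a stretch anew in each list that held it, as with the DNMT3A block at the stop codon. Without such repeats, DNMT3A had 2.04 matches per 100 nt of its isoform inside peaks, the lowest but for TET3. DNMT3B was then highest, at 2.67, from its only peak. Inside peaks of any list TET2 had 2.50 matches per 100 nt of its isoform and 1.61 outside them, and UHRF1 had 2.30 and 1.42. TET3 was the exception, with 1.55 inside and 1.68 outside, although its GGAC matches were denser inside, 0.493 per 100 nt, than outside, 0.321.

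Inheritance of peaks from stage to stage was then examined, and a peak counted as inherited, or shared, if peaks of the list before overlaid over 50% of its exonic nt. From hPSC to DE, 21 of 27 DE peaks on the 7 genes were shared, against 64.7% of all DE peaks. All 7 TET3 peaks, all 4 DNMT1 peaks and 7 of 9 TET1 peaks of DE were shared with hPSC, but only 1 of 5 TET2 peaks was. The covered nt of TET3 numbered 2775 in hPSC and 975 in DE, and only 25 of those in DE were not covered in hPSC. Of the nt covered in DE, 97.4% for TET3 and 76.6% over all coding genes were covered in hPSC. From DE to PP, 17 of 44 PP peaks were shared, against 57.0% of all PP peaks. Only 2 of 11 TET3 peaks and 1 of 5 UHRF1 peaks of PP were shared with DE, and the 4 others of UHRF1 were all in coding sequence. From PP to hILO, 14 of 30 hILO peaks were shared, against 45.6% of all. By this measure the share of members stood above that of all peaks in DE, below it in PP and near it in hILO, but for DE and hILO this depended on the measure. With overlap above 50% in both directions, 11 of 27 DE peaks were shared, or 40.7% against 47.5% of all. With any overlap, 22 of 30 hILO peaks were, or 73.3% against 56.2% of all. In PP the members stayed lower under both, with 29.5% against 41.2% and 50.0% against 64.2%. With 7 genes these counts rest on few transcripts, and peaks of 1 transcript are not independent of each other.

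The second experiment compared WT PP with A5-KO PP and asked what loss of the demethylase did to the peaks. On the 7 genes 27 of 43 A5-KO PP peaks were shared with WT PP, against 46.8% of all A5-KO PP peaks. With overlap above 50% in both directions, 16 of 43 were, or 37.2% against 30.6% of all. TET1 and TET2 had more and shorter peaks in A5-KO PP but slightly less covered transcript. TET1 coverage was 45.8% in WT PP, beside 41.6% in A5-KO PP, with 3650 nt covered in both lists, 750 nt in WT PP alone and 350 nt in A5-KO PP alone. TET2 coverage was 43.3% and 39.1%, with 3473 nt in both, 925 nt in WT PP alone and 500 nt in A5-KO PP alone. TET3 went the other way, from 5 peaks and 11.2% of the isoform in WT PP to 13 peaks and 26.2% in A5-KO PP. Of the TET3 nt covered in A5-KO PP, 2032 were not covered in WT PP, and 225 nt were covered in WT PP alone. For TET3 35.6% of the nt covered in A5-KO PP were also covered in WT PP, beside 91.2% for TET1, 87.4% for TET2 and 69.5% over all coding genes. The A5-KO PP list was the longer one, with 55219 peaks against 43312, while the covered nt over all coding genes were slightly fewer. The region with the largest block of peaks absent from WT PP was the 3′ end of the TET3 coding sequence. There A5-KO PP had peaks at chr2:74100856-74101305, chr2:74101331-74101580 and chr2:74101731-74102255, and the WT PP list had none after chr2:74100430 until the 3′UTR peak at chr2:74103231-74103555. The lists of batch 1 did have peaks in this region, for example chr2:74101556-74102330 in PP. Of the 6 lists, WT PP was the one without a peak there, and with 1 list per population a peak missed by the caller and a change in m6A cannot be told apart. DNMT3A and UHRF1 had their common blocks in both lists, and DNMT3B had no peak in either. No peak of the 7 genes was in register in both lists, so no difference in their enrichment is given.

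The progenitors of both batches could be set side by side for position only. All 1450 nt covered in TET1 in PP were also covered in WT PP, and 1425 of the 1475 nt of TET2. For TET3 it was 700 of 2078 nt, for UHRF1 300 of 948 nt and for DNMT1 0 of 390 nt, all on the longest coding isoform. Over all exons used, 50 of the 700 nt of DNMT1 covered in PP were also covered in WT PP, at chr19:10162907-10162956. Over all coding genes 74.3% of the nt covered in PP were covered in WT PP. The protocols differed, and their part in these values was not tested.

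Enrichment could be followed for TET1 from hPSC to DE and for DNMT1 over the 4 stages of batch 1. Values are the deposited log2 of IP over input, and intervals cover counting error only, at 95%. Shared peaks can differ in length, and reads are those of each list's own peak. The TET1 peak over the stop codon had 437 input and 6796 IP reads in hPSC and 367 and 1402 in DE, for a log2 enrichment of 2.48 and 2.34. The difference was -0.14 (-0.35 to 0.08). Such pairs were formed by 7 TET1 peaks, whose differences ran from -0.38 to 0.32 with a median of 0.06, and all 7 intervals held 0. For all genes the median difference over 5814 pairs was -0.12. A difference of at least 1 was found in none of the 7 TET1 or 4 DNMT1 pairs, and among all pairs 1.22% were higher in DE by that much and 1.48% lower.

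DNMT1 enrichment was lower in DE than in hPSC at 2 of 4 pairs beyond counting error, where 20.3% of all pairs were lower and 4.83% higher to that extent. Most pairs of all genes were lower in DE, and 1969 of 5814 were above 0. The peak at chr19:10160309-10162831, with 275 exonic nt in hPSC, PP and hILO but only the 200 nt within chr19:10160384-10162831 in DE, had 375 input and 6149 IP reads in hPSC, DE had 168 and 508, PP 453 and 2357, and hILO 242 and 1022. Its log2 enrichment was 2.63, 1.95, 1.80 and 2.19 in that order. It was highest in hPSC and lowest in PP. The difference was -0.67 (-0.97 to -0.38) from hPSC to DE, -0.15 (-0.44 to 0.14) from DE to PP and 0.39 (0.15 to 0.64) from PP to hILO. The peak next to it was chr19:10162907-10173154 in hPSC and hILO (300 exonic nt), chr19:10162957-10166610 in DE (75 nt) and chr19:10162907-10168354 in PP (225 nt). It had 756 input and 8261 IP reads in hPSC, DE had 200 and 448, PP 767 and 3178, and hILO 729 and 1766. Its log2 enrichment was 2.01 in hPSC and 1.48, 1.38 and 1.39 in the other stages, so hPSC stood above the rest. The difference from hPSC to DE was -0.54 (-0.80 to -0.28). At the other 2 pairs the difference from hPSC to DE was -0.22 (-0.46 to 0.02) and 0.04 (-0.21 to 0.29). From DE to PP, 1 of 3 pairs, at chr19:10151491-10151540 in PP, was lower beyond counting error, by -0.27 (-0.52 to -0.02). The median over all 537 pairs was -0.20, and 33.9% of them were lower and 5.59% higher beyond counting error, so this DNMT1 difference was near the general one. From PP to hILO 1 of 2 pairs was higher beyond counting error, as given above, beside 16.2% of all pairs higher and 14.7% lower. No DNMT1 pair differed by 1 or more from DE to PP, where 0.745% of all pairs were higher and 3.17% lower by that much, or from PP to hILO, where 0.498% were higher and 0.498% lower. Each list was normalized on its own and libraries were pooled, so variation between cultures adds to these errors by an unknown amount.

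Input reads in the same peaks give a partial view of the amount of transcript. Per nt, and scaled to 1000000 input reads in all peaks of the list, the median log2 difference from hPSC to DE was -1.56 for TET1 and -1.15 for DNMT1, beside -0.07 over all pairs, and input was lower in DE at all 11 pairs. DNMT1 input was higher in PP than in DE by a median of 2.63 over 3 pairs, beside 0.63 over all pairs. From PP to hILO the median difference was -2.72 over 2 pairs, beside a median of -0.97 over all 402 pairs. These values depend on peak length. Per peak, without division by length, the medians from hPSC to DE were -2.54 for TET1 and -2.09 for DNMT1, beside -0.45 over all pairs, and those of DNMT1 were 2.05 from DE to PP and -2.51 from PP to hILO, beside 0.06 and -0.87. The direction was the same on both scales at every TET1 and DNMT1 pair. At the DNMT1 peak of 275 nt, 200 nt in DE, the log2 difference in this input per nt was -1.36 from hPSC to DE, 1.82 from DE to PP and -2.93 from PP to hILO, so hPSC and PP stood above DE and hILO. In these bulk samples fewer cells with the transcript and less RNA per cell cannot be told apart. TET1 had fewer peaks in DE, 9 against 12, together with this lower input, and the part of input depth in that count was not tested.

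**Figure D4:**
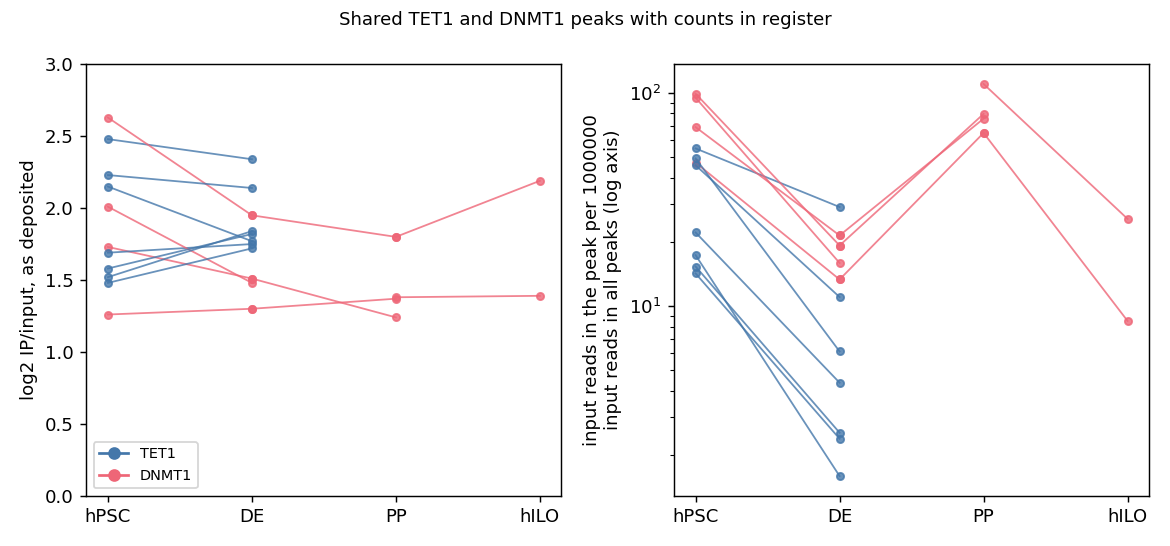
Lines join a TET1 (blue) or DNMT1 (red) peak to the shared peak of the next stage, for peaks in register; the left axis is log2 IP over input and the right axis, on a log scale, input reads in the peak scaled to 1000000 input reads in all peaks. Enrichment differs by less than 1 at every pair, whereas input is lower in DE than in hPSC at all 11 pairs and DNMT1 input is high in hPSC and PP; reads are not divided by peak length, which can differ between lists, and points are pooled lists with no replicate error.

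The 15 peaks set aside were listed under DNMT1 but lay on exons of S1PR2, a sphingosine 1-phosphate receptor gene on the same strand (chr19:10221433-10231331). The hPSC list held 3 of them, DE 4, PP none, hILO 1, WT PP 4 and A5-KO PP 3. Counting them under DNMT1 would have raised its peaks in WT PP from 2 to 6. The annotated DNMT1 gene, chr19:10133342-10231286, overlaps this locus.

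Other genes of the DNA methylation pathway were described for context, from a list of 31 partners, readers, repair factors and methyl donor enzymes. At least 1 peak was on 27 of them in hPSC, 25 each in DE and PP, 26 each in hILO and A5-KO PP, and 28 in WT PP, and 22 had one in all 6 lists. Among all coding genes the share with a peak was 49.9% to 68.0% per list, as given above, and 35.1% had one in all 6. Most peaks over the 6 lists were on MBD5, a member of the methyl-CpG-binding domain family, with 73, then on ZBTB38, a zinc finger reader of methylated DNA, with 58, and on QSER1, which guards sites from de novo methylation, with 53. TET1 had 56, TET3 53 and TET2 49. DPPA3, an inhibitor of UHRF1, had none. Of 10 shared pairs of the list in register with at least 50 input reads, the largest positive differences were 0.35 (SE 0.23) at UHRF2, a paralogue of UHRF1, and 0.09 (SE 0.09) at MBD4, a DNA glycosylase, both from hPSC to DE. The 3 largest negative differences were all at ZBTB24, a zinc finger factor whose gene is mutated in a DNA hypomethylation syndrome. There 3 A5-KO PP peaks lay inside 1 WT PP peak with a log2 enrichment of 5.12, and their enrichment was 4.71, 4.70 and 3.94. The largest of them was -1.18 (SE 0.11), and of all pairs in register between these lists 14.9% were higher and 18.1% lower by at least 1.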

How the data were processed

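m6A-seq libraries from MEL1 cells (2 IP and 2 input for each of 6 populations) were analysed from 1 deposited peak list per population. According to the study's methods, the authors used fastp for trimming, HISAT2 for alignment to GRCh38 and called peaks with exomePeak2, with thresholds of 1.5 for IP over input and 1e-05 for p. For each peak the authors deposited pooled read counts of IP and input, a log2 enrichment and p-values. As deposited, 63.2% of all rows and 136 of the 210 member rows had a p below 1e-05 (32 of the 39 in register); all listed peaks were used. Whether the counts are sums or means was not stated, library totals were not used here, and depth is described by reads in peaks.

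Only the part of a span on GENCODE 44 exons of the listed gene was used. In DNMT1 6 transcripts and in DNMT3B 1 were left out, since without them all 210 peaks, instead of 204, had an exonic length that is a multiple of the 25 nt step. Rows in register were consecutive windows of 300 rows from row name 10000 on with a Spearman's rho between exonic length and IP reads of at least 0.3. The planned fit of counts to every shared peak was narrowed to these rows after the data were seen, and peaks described one by one by their counts are therefore those of TET1 and DNMT1. Standard errors of a difference were computed from the counts with 0.5 added to each, and take them as sums; PCR copies are not independent molecules, so they are approximate. Input densities used a pseudocount of 1 read. All 7 genes are named. Pathway genes are named when they had no peak, were among the 3 with most peaks, or held one of the 3 largest rises or falls with at least 50 input reads. Members, lists and markers were chosen with earlier results of these data known. Functions were tested on simulated data. Python 3.11.15, NumPy 2.4.6, SciPy 1.17.1 and Matplotlib 3.10.9 were used.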

Additional observations from a re-analysis of the deposited data

How the results depend on the processing

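No paired analysis was possible because each list pools its libraries and carries no replicate number; for the same reason no library could be left out. Of 73 alternatives, 55 kept the value (counts within 1.5 times). This tally does not measure robustness, since many of the kept values were 0 pairs with a difference of at least 1 under both settings. Among them, the minimum of 50 input reads can only drop pairs and so could not change a 0. Alternatives on enrichment, p or input reads use the row values as deposited, and since most rows are out of register no order of the lists is read from them. At an IP/input of at least 3, peaks on the 7 genes numbered 23 in hPSC, 19 in hILO and 21 at the PP stage. At p below 1e-05, the threshold in the authors' methods, they numbered 13 in DE, 19 in PP and 27 in A5-KO PP; over whole lists 94.3% of hILO rows passed it, against 54.1% to 62.7% in the others. With overlap above 50% in both directions, shared peaks numbered 11 in DE and 16 in A5-KO PP, and with any overlap 22 in hILO. GGAC in place of DRACH was in 111 of 210 peaks. Chosen after the data were seen, taking all shared pairs with the counts as paired in the rows gave 1 pair higher and 2 lower by at least 1 from hPSC to DE, 1 higher and 1 lower from DE to PP, and 1 higher from PP to hILO, against 0 in register. Also chosen then, the median log2 difference in input per peak, not per nt, over the 7 genes was -2.36 from hPSC to DE, 2.05 from DE to PP and -2.51 from PP to hILO. The cause of these changes was not tested. For WT PP to A5-KO PP the other settings for enrichment and input gave no value, since no member pair was in register. Windows of 150 rows or a lowest correlation of 0.2 kept 39 peaks in register. Among shared TET1 peaks of DE the lowest input was 20 reads, which leaves wide counting intervals there.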
